A study of Caenorhabditis elegans with 2 samples.

Results

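The ribosomal protein genes of the cytosolic ribosome are described here as places on the genome where a chromatin immunoprecipitation (ChIP-seq) recovered DNA from embryos of the nematode Caenorhabditis elegans. They were chosen by name, as all nuclear protein-coding genes called rpl, rps or rla with a number in the Ensembl annotation of the WBcel235 assembly, which gave 81 of 19973 nuclear protein-coding genes. Of these, 50 carry names of the large subunit (47 named rpl and 3 named rla) and 31, named rps, carry names of the small subunit. One of them, rpl-24.2, is annotated in RefSeq as a putative ribosome biogenesis protein and was kept because the choice was by name. The samples were 2 biological replicates of 1 group: whole mid-embryos, 3.5 hours old and synchronised by egg bleaching, of strain OP787, with the genotype wgIs787(T27A8.2::TY1 EGFP 3xFLAG; unc-119(+)) and unc-119(tm4063). All samples carry the transgene and the unc-119 mutation. Chromatin was sheared by sonication and precipitated with an antibody against GFP. The labels name the target tab-1 while the genotype tags T27A8.2. These are different genes in the annotation, tab-1 on chromosome II and T27A8.2 on chromosome X, and the group is therefore named after its label, labelled tab-1. Embryos were taken whole, so the cells in which a site was occupied cannot be told apart. No peaks from a control strain or input were used here, and whether a site depends on the tagged protein was not tested.

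Ribosomal proteins are bound onto ribosomal RNA to build the small subunit, which reads the messenger RNA, and the large subunit, which joins amino acids. Their genes are transcribed strongly and in step with each other in growing cells, and a worm embryo also starts with ribosomes from its mother. Many worm messengers are trans-spliced: a short leader RNA replaces the first part of the transcript, so the annotated 5′ end is often a splice site and not the place where transcription starts. Some worm genes also sit in operons, where 1 promoter serves several genes in a row.

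Stretches of genome at 6 of the 12 sites found at these genes in the authors' conservative list are printed to show what was recovered: the 4 of highest signal, the site of rps-23, which holds 2 of the words marked, and that of rpl-7A, which has the lowest signal and lies nearest to its gene. Each runs 5′ to 3′ on the gene's strand over 151 bp of WBcel235, read from the RefSeq copy of that assembly, with the summit (the position of the peak's maximum) at base 76. Capitals mark any of 11 words of 6 letters, found on either strand. They are the homeodomain core TAATTA, its rearranged form TATTAA, the acceptor form TTTCAG, the repeats GAGAGA and then GCGCGC, the word CCGCCC rich in those bases, the E-box CACGTG, the word GATAAG that GATA factors bind, the tRNA gene word GTTCGA and the form TATAAA of a TATA box. To these was added CAACGC, which was picked after the sequences were compared.
rpl-3, chrIII:3867483-3867633, plus strand: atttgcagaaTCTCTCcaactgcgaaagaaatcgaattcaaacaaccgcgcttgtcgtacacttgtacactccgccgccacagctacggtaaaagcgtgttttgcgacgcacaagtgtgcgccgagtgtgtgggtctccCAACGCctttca
rpl-15, chrIV:654849-654999, minus strand: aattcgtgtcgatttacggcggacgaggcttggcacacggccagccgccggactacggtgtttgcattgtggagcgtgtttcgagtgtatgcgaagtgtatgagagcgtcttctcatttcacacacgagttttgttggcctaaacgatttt
rpl-35, chrIII:7854620-7854770, plus strand: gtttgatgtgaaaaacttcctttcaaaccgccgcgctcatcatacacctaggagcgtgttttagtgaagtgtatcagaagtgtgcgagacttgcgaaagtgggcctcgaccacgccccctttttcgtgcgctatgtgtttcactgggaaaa
rps-28, chrIV:1659186-1659336, plus strand: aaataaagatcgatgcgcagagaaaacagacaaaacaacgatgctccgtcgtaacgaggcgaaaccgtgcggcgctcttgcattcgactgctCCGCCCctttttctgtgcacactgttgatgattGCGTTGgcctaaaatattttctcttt
rps-23, chrIV:12391281-12391431, minus strand: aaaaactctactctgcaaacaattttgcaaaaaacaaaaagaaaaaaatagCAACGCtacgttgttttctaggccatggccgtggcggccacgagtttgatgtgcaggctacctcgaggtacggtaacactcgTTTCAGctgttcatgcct
rpl-7A, chrIV:4390595-4390745, minus strand: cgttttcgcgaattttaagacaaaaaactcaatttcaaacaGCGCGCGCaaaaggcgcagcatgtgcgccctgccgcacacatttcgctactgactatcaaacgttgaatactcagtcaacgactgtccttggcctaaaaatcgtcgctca
No coding exon or untranslated region of a protein-coding gene overlaps these windows.

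Another set of 4 stretches shows the 24 bases just before an annotated 5′ end, where a trans-spliced gene carries its splice acceptor. Capitals mark TTNCAG, the usual form of the worm acceptor, where N is any base.
rpl-3, chrIII:3867830-3867853, plus strand: tttcgtaaaattaatattTTTCAG
rps-24, chrIV:385870-385893, plus strand: ctacaattcaaatttattTTGCAG
rpl-35, chrIII:7855110-7855133, plus strand: tttttaagcaatctcattattcag
rpl-7A, chrIV:4390591-4390614, minus strand: ggcctaaaaatcgtcgctcatttt
The stretches of rpl-3 and rps-24 end in the acceptor form. That of rps-24 stands before the inner of its 2 annotated 5′ ends and overlaps an untranslated region. The distance given below for rps-24 is measured to the outer 5′ end. That of rpl-35 ends in letters that differ from it at the start of the word, and that of rpl-7A holds no such word.

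Among these 81 genes, 12 had a site in the conservative list, a share of 14.8% (95% Wilson interval 8.68 to 24.1), while 2.97% of all nuclear protein-coding genes had one. A gene was counted when a summit lay from 1000 bp upstream to 200 bp downstream of the 5′ end of any of its transcripts, called its promoter window. That list holds 1313 peaks, which merge into 1266 sites, and 489 of these sites lie in the promoter window of a protein-coding gene. The signal is the authors' measure of peak strength on a scale the sources used here do not state. It is compared only within a list. Read depth is unknown, and the intervals cover counting error over genes only.

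In the authors' other list of both replicates 16 members had a site (19.8%, Wilson 12.5 to 29.7), against 3.47% of all genes. Each replicate also has its own list, thresholded separately. Replicate 1's list of 453 nuclear sites held 2 members (2.47%, Wilson 0.68 to 8.56), against 1.08% of all genes. Replicate 2's list of 726 nuclear sites held 14 (17.3%, Wilson 10.6 to 26.9), against 2.08% of all genes. The members' share thus lay above that of all genes in each of the 4 lists, and in replicate 1's list the interval of the members includes the share of all genes. Only rpl-15 and rpl-35 were in both replicates' own lists, against 178 of all 19973 nuclear protein-coding genes. In all, 19 members had a site in at least 1 of the 4 lists and 62 in none. The same count over all genes is not given here, so the 19 have no comparison.

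Shares of large and small subunit genes overlapped. In the conservative list 7 of 50 large subunit genes (14%, Wilson 6.95 to 26.2) and 5 of 31 small subunit genes (16.1%, 7.09 to 32.6) had a site, and the intervals overlap. The other list held 9 large subunit genes (18%) and 7 small subunit genes (22.6%). Replicate 1's own list held 2 of the large and 0 of the small, which still allows a share of up to 11.0% of the small by the Wilson interval. Replicate 2's own list held 7 of the large (14%) and 7 of the small (22.6%). With each site counted only for its nearest gene, 6 large subunit and 2 small subunit genes had one, so the order of the subunits depends on the list and the assignment. The difference between the subunits was not tested.

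Of the large subunit genes, rpl-3 had the site of highest signal. Its protein reaches towards the peptidyl transferase centre, where the peptide bond is made. The peak spans 3867503 to 3867635 on chromosome III, its summit lies 296 bp upstream of the 5′ end, and its signal of 220.1 ranks 172 of the 1266 sites. The overlapping candidate had a signal of 68.8 in replicate 1 and of 149 in replicate 2, each on its own list's scale. The site of rpl-15 spans 654884 to 654982 on chromosome IV, with the summit 348 bp upstream and a signal of 199.8 (73.6 in replicate 1 and 133 in replicate 2). It lies in a shared upstream region: the divergent gene K11H12.8 starts 466 bp to the other side. The site of rpl-35, whose product sits near the exit of the tunnel for the new peptide in yeast and human ribosomes, spans 7854543 to 7854846 on chromosome III. Its summit is the most distant of the 12, at 439 bp upstream, with a signal of 177 (79.3 in replicate 1 and 96.0 in replicate 2). These 3 genes stand apart from the other large subunit genes, whose sites had signals of 98.4 or less.

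The remaining 4 large subunit sites were rpl-41.2, rpl-20, rpl-14 and rpl-7A. At rpl-41.2, which encodes a very short basic peptide, the peak spans 4789868 to 4790171 on chromosome I, with the summit 272 bp upstream and a signal of 98.4 (49.5 in replicate 1 and 41.9 in replicate 2). At rpl-20 it spans 4749956 to 4750259 on chromosome IV, 330 bp upstream, with a signal of 95.4 (53.5 and 50.7 in replicates 1 and 2). The summit lies nearer to the divergent gene Y17G9B.5, at 132 bp. The peak of rpl-14 spans 9688751 to 9689054 on chromosome I, 294 bp upstream, with a signal of 94.1 (36.2 in replicate 1 and 67.6 in replicate 2). The weakest, at rpl-7A, spans 4390518 to 4390821 on chromosome IV and alone reaches over the gene's 5′ end, with the summit 80 bp upstream and a signal of 72.7 (47.3 in replicate 1 and 30.6 in replicate 2). It ranks 1126 of 1266 and is the one site of the 12 that the other list lacks.

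Among small subunit genes rps-28, whose product lies near the exit of the messenger RNA channel, had the strongest site. It spans 1659191 to 1659304 on chromosome IV, 430 bp upstream, with a signal of 172 (69.5 in replicate 1 and 115 in replicate 2), and also falls 849 bp upstream of Y41D4B.4 on the same strand. The genes rps-24 and rps-19, both mutated in people with Diamond-Blackfan anaemia, a failure of red cell production, had sites as well. That of rps-24 spans 385409 to 385712 on chromosome IV, 326 bp upstream, with a signal of 138 (46.0 in replicate 1 and 100.4 in replicate 2). That of rps-19 merges 2 peaks from 9625939 to 9626452 on chromosome I, 295 bp upstream, with a signal of 113 (42.5 in replicate 1 and 74.3 in replicate 2). The divergent gene hsr-9 is nearer to its summit, at 150 bp. At rps-12 the peak spans 5678944 to 5679247 on chromosome III, 202 bp upstream of rps-12 and 91 bp from the divergent kinetochore gene ska-3, with a signal of 116 (47.7 in replicate 1 and 79.3 in replicate 2). The protein of rps-23 lies at the decoding centre. Its peak spans 12391204 to 12391507 on chromosome IV, 303 bp upstream of rps-23 and 231 bp from the divergent gene dpm-3, with a signal of 83.3 (41.2 in replicate 1 and 47.7 in replicate 2). The 303 bp are to the nearer of 2 annotated 5′ ends of rps-23, and an acceptor form stands before the other.

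**Figure D1:**
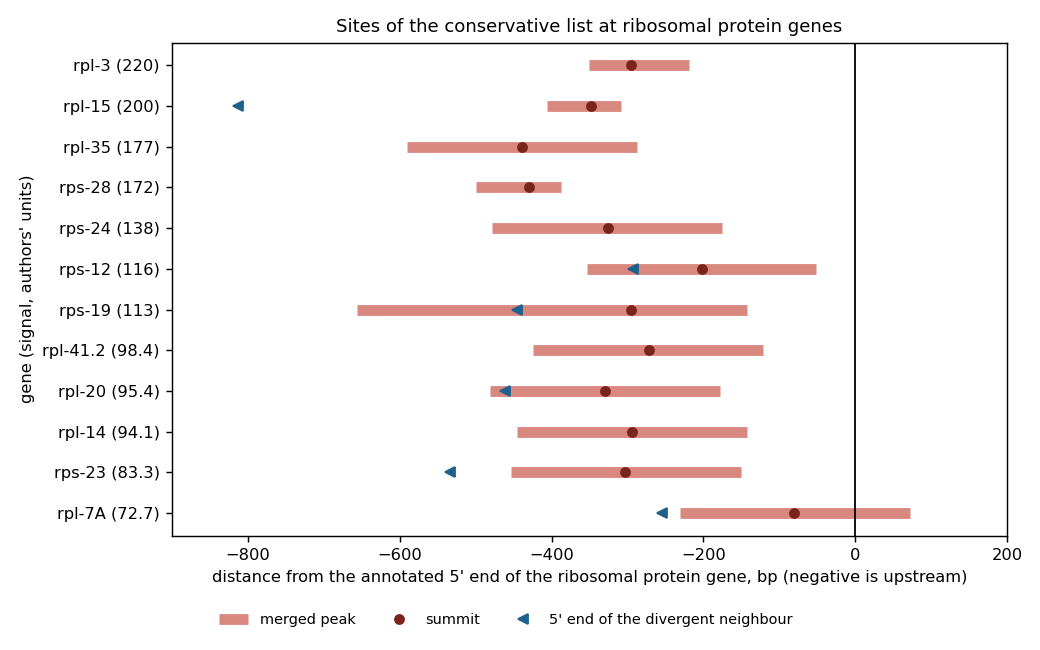
Merged peaks of the conservative list at 12 ribosomal protein genes, drawn as bars along the distance from each gene's annotated 5′ end in bp, with the summit as a dot and the 5′ end of a divergent neighbour as a triangle; genes run from the highest signal at the top to the lowest. Every summit lies upstream, 11 of the 12 between 200 and 500 bp, and only the peak of rpl-7A crosses the 5′ end.

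The distance to the 5′ end was alike across the 12 sites. Summits lay at a median of -299.5 bp (quartiles -334.5 and -288.5, SD 94.8 bp over the 12), where a negative distance is upstream. Where a gene has several annotated 5′ ends, the one nearest to the summit was used. All 12 were upstream and 11 (91.7%) lay between 200 and 500 bp upstream. Other protein-coding genes with a site, each measured to its own 5′ end in the same way, had a median of -264 bp (quartiles -519.75 and -116), with 197 of 582 (33.8%) in that band and 523 (89.9%) upstream. When every site was measured to the nearest gene, 8 of the 12 (66.7%) lay in the band, with a median of -283 bp, against 150 of the other 477 promoter sites (31.4%), with a median of -233 bp. Without sites within 200 bp of a small RNA gene (tRNA, snoRNA, snRNA or miRNA), 117 of 395 other sites (29.6%) were in the band, and where the gene also had a splice acceptor at its 5′ end, 88 of 227 (38.8%). Among genes of translation factors 5 of the 7 with a site (71.4%) had it in the band too, while genes of ribosome assembly had 0 of 4 and mitochondrial ribosomal protein genes 0 of 3. The band was drawn after the distances were seen, and no test of it was made.

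Weaker candidates were spread more widely. The ranked list that contains the conservative peaks holds 95098 candidates, most of them below any threshold. The strongest candidate in the promoter window lay in that band for 36 of the 79 members that have one (45.6%), 11 of which are the conservative sites from which the band was drawn. For other genes it did so in 3190 of 12761 (25%), and for other genes with a splice acceptor in 1034 of 3866 (26.7%). Without genes that have a conservative site it lay there for 25 of 67 members (37.3%), against 2994 of 12179 other genes (24.6%).

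**Figure D2:**
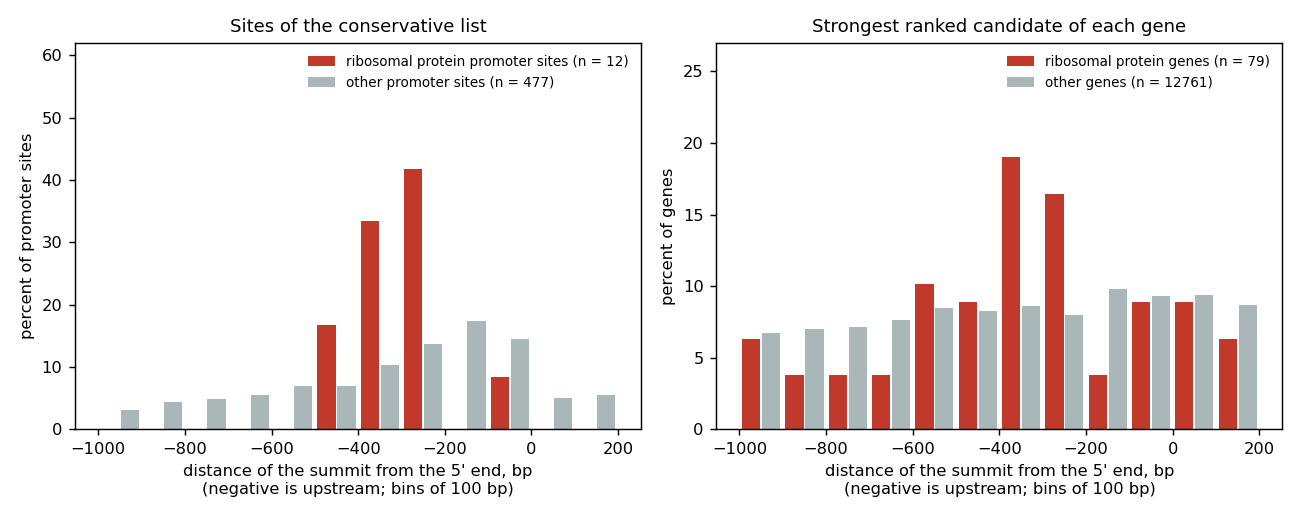
Share of sites (left) and of genes (right) by the distance of the summit from the annotated 5′ end, in bins of 100 bp, for ribosomal protein genes (red) and for others (grey); the left panel uses the conservative list, with red sites measured to the ribosomal protein gene and grey sites to their nearest gene, and the right panel the strongest ranked candidate of each gene. The tallest red bars lie within the stretch from 200 to 500 bp upstream in both panels, while the grey bars on the right are nearly level across the window.

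Signal at the members' sites was moderate within the list: 9 of the 12 lay in its upper part by rank (172 to 633 of 1266), and none among the 20 strongest. The 12 sites had a median signal of 114 (72.7 to 220.1) and a median rank of 442, against a median signal of 98.8 and a median rank of 577 for the other 477 promoter sites. Other promoter sites away from small RNA genes had a median of 92.8. None of the 12 summits was within 200 bp of a small RNA gene, against 82 of the 477 others (17.2%). The authors' IDR, short for irreproducible discovery rate, is low where a peak ranks high, and alike, in both sets compared. At the 12 sites its −log10 ran from 2.08 at rpl-7A to 3.45 at rpl-3.

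The replicates were unequal at many of these sites. Replicate 1 gave the members' sites a median signal of 48.6, against 48.2 for other promoter sites, while replicate 2 gave them 76.8, against 50.7. The lists of the replicates are scaled separately, so the ratio of replicate 2 to replicate 1 is read only against the same ratio at other sites. It had a median of 1.66 at the 12 sites and ran from 0.648 at rpl-7A to 2.18 at rps-24. At other promoter sites it was 1.08, and at those in the same range of conservative signal 1.06 (355 sites, a comparison added after the values were seen). Signal was higher in replicate 2 at 9 of the 12 sites and at 275 of 468 other promoter sites (58.8%). The exceptions among the 12 were rpl-7A, rpl-41.2 and rpl-20. With 1 library per replicate this difference cannot be told apart from a difference in depth or enrichment between the libraries, and the members' counts in the 2 own lists, given above, move with it.

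**Figure D3:**
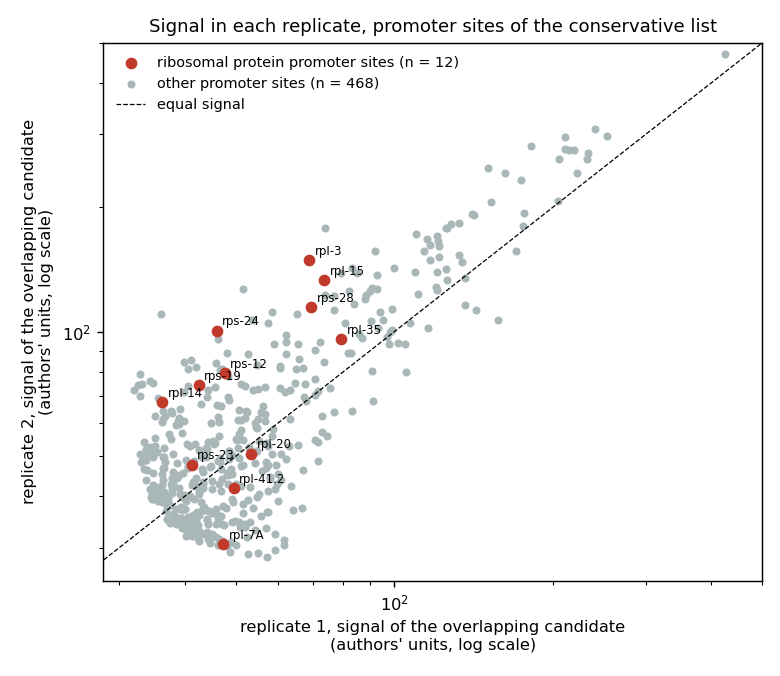
Signal of the overlapping candidate in replicate 1 (horizontal) and in replicate 2 (vertical), both in the authors' units on log scales, for 12 ribosomal protein promoter sites (red, named) and 468 other promoter sites (grey) of the conservative list; the dashed line marks equal signal. Of the red points, 9 lie above the line, with rps-24 and rpl-3 farthest from it, and rpl-7A lies lowest below it.

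A further 7 members had a site in another list but not in the conservative one. The signals of rps-26 and rps-20 in the ranked list, 105 and 104, were above those of 5 conservative sites, but their scores in that list, 538 and 658 on a scale to 1000, were below 830, the lowest score in the conservative list. In replicate 1 the candidates at rps-26 and rps-20 had signals of 24.9 and 27.6, and in replicate 2 of 78.7 and 71.8. Both were in the other list and in replicate 2's own list, with a score of 1000 in each of these. The product of rps-26 lies at the messenger RNA exit, and its summit, 397 bp upstream, has 1 small RNA gene within 200 bp. That of rps-20 lies 237 bp upstream and in the window of ekl-4. The candidate of rpl-43 (signal 76.7, 766 bp upstream) was in those lists too, and those of rpl-25.1 (72.8, 110 bp downstream) and rpl-24.2 (65.3, 138 bp upstream) in the other list only. At rpl-25.1 replicate 1 had a signal of 43.4 and replicate 2 had no overlapping candidate. Only replicate 2's own list held rpl-5 (signal 54.7 there), whose protein carries a small ribosomal RNA into the large subunit, and rps-11 (47.2 there).

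Nearly all members had at least a weak candidate. In the ranked list 79 of 81 (97.5%) had a candidate in the promoter window, against 64.3% of all nuclear protein-coding genes; rpl-28 and rps-2 had none. The strongest candidate of a member had a median signal of 49.7 and stood at a median percentile of 90.5 among all candidates, against 35.1 and 72.9 over all genes with a candidate. For the large subunit the median percentile was 91.1 and for the small 86.5. This order was reversed in replicate 1's own ranked list, with 77.8 for the large and 83.8 for the small. In replicate 2's it was 85.1 for the large and 78.6 for the small. The median over all members was 80.4 in replicate 1's own ranked list, against 67.9 over all genes, and 84.4 in replicate 2's, against 67.7. These medians leave out the genes with no candidate. The conservative list is the thresholded form of the ranked list, with 830 as its lowest score. Members outside it therefore score below 830 by construction. The highest score among their strongest candidates was 712, at rpl-25.2, while rpl-7A had 865 and the other 11 conservative sites 1000.

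Below the thresholded lists, rps-17 had the strongest candidate (signal 72.5, 200 bp upstream), just under that of rpl-7A. It was followed by rpl-25.2 (66.7, 117 bp upstream), rpl-30 (66.6, 876 bp upstream), rps-18 (64.9, 684 bp upstream) and rpl-23 (64.3, 327 bp upstream). The lowest values were those of rpl-29 (4.94), rpl-6 (12.2), rpl-42 (14.2), rpl-37 (17.7) and rpl-41.1 (19.5). These lie under the median of 35.1 over the genes with a candidate, while the highest member reached 220.1. Some members share a candidate and are not independent: rpl-39 and rps-30 (54.6), rpl-24.1 and rps-10 (42.8), and rpl-36 and rps-14 (26.3).

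Genes that share a ribosomal protein's number had unequal signals, some by little. The strongest candidate of rpl-41.2 had 98.4 and that of rpl-41.1 had 19.5. For rpl-25.1 it was 72.8 and for rpl-25.2 66.7, and for rpl-11.2 54.2 and for rpl-11.1 36.1. How reads that match more than 1 place were treated is not given in the sources used here.

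**Figure D4:**
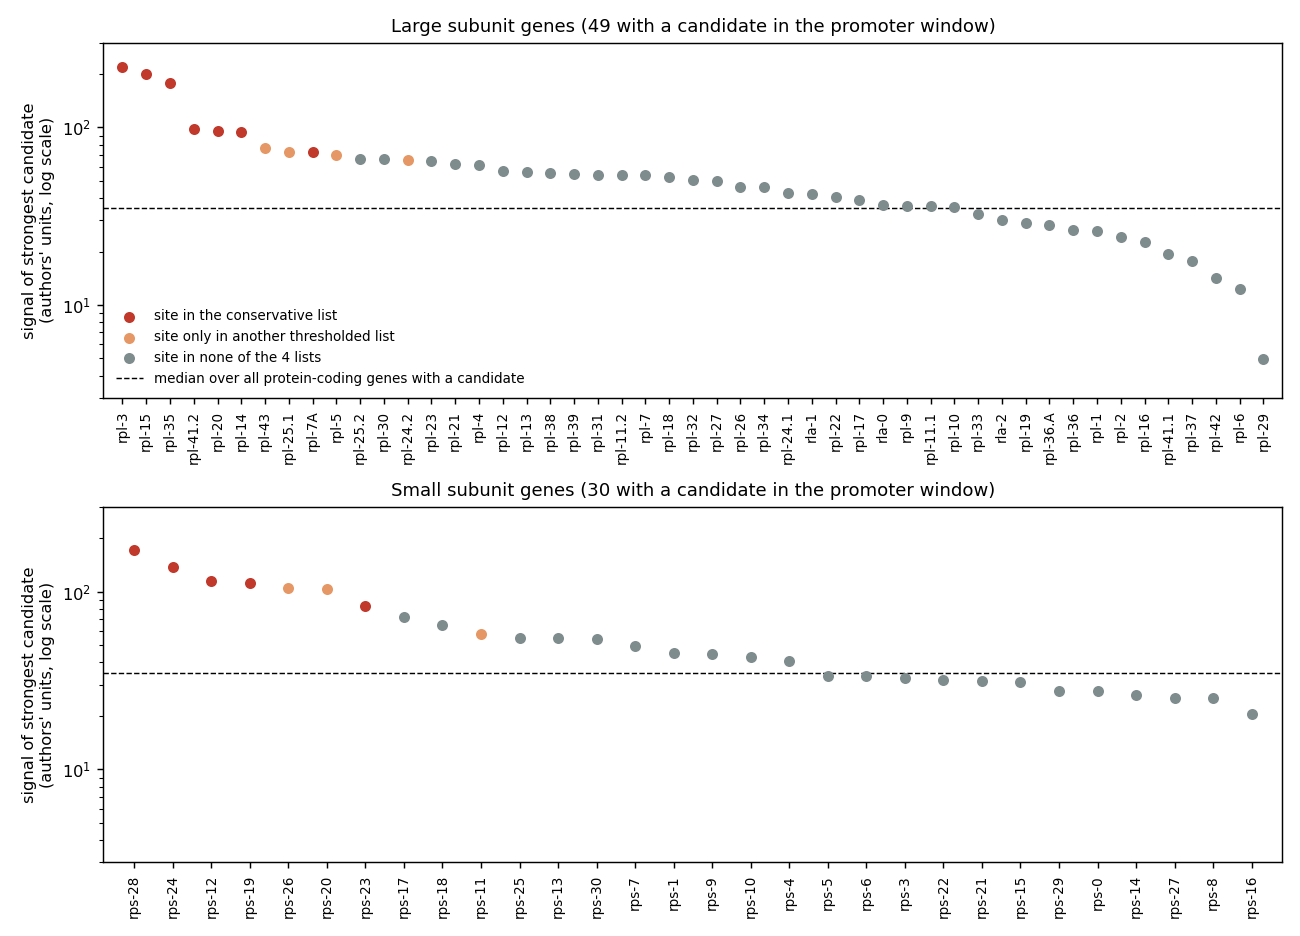
Signal of the strongest ranked candidate in the promoter window of each ribosomal protein gene, in the authors' units on a log scale, for 49 large subunit genes (top) and 30 small subunit genes (bottom), in falling order; colours show in which thresholded lists the gene has a site and the dashed line is the median over all genes with a candidate. In both subunits the values fall gradually below the strongest conservative sites, and rps-26 and rps-20 (orange) lie among the red points.

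A splice acceptor form at the 5′ end is common among these genes. TTNCAG stood in the 6 bases just before a 5′ end in 68 of the 81 members (84.0%), against 5069 of 19892 other protein-coding genes (25.5%). The share with a conservative site was 10 of 68 (14.7%) in members with it and 2 of 13 (15.4%) in members without, which are rpl-7A and rpl-35. In other genes it was 277 of 5069 (5.46%) with it and 305 of 14823 (2.06%) without. Thus the members' share was higher than that of other genes with the same letters, 14.7% against 5.46%, with a Wilson interval of 8.19 to 25 for the members. At rps-23 and rps-24 such letters stand before a 5′ end other than the one used for the distance. Trans-splicing itself was not measured. The letters were counted only where an annotated 5′ end directly follows them. How 5′ ends were placed was not compared between members and other genes.

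Members that closely follow a same-strand gene, as downstream genes of an operon do, had no site in the conservative list at a limit of 500 bp. At 1000 bp that does not hold, because rpl-41.2, which has a site, then follows rpl-41.1. A gene on the same strand ended within 500 bp upstream of 9 members: rla-1, rpl-16, rpl-19, rpl-25.1, rpl-27, rps-2, rps-7, rps-16 and rps-17. The neighbour of rps-16 is fib-1, the gene of fibrillarin, a methyltransferase of ribosomal RNA, 110 bp away, and that of rla-1, which encodes a protein of the stalk that binds elongation factors, is Y37E3.8 at 106 bp. None of the 9 had a conservative site (Wilson upper limit 29.9%), while 12 of the other 72 members did (16.7%). Of the 9, rpl-25.1 was in the other list. The upstream gene fib-1 had a conservative site (signal 65.1), whose summit also lies in the promoter window of mut-15. None of the other upstream neighbours of the 9 had one. Among other genes the shares were 79 of 3606 (2.19%) with such a neighbour and 503 of 16286 (3.09%) without. At 9 genes a share equal to that of the other members could not be told apart from 0, and spacing alone does not show an operon.

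Shared upstream regions were frequent. At 7 of the 12 sites the summit also lay in the promoter window of another protein-coding gene, 6 divergent and 1 on the same strand, against 110 of 477 other promoter sites (23.1%). The 12 were reached gene by gene, which favours sites in several windows. The share of other sites is therefore not a like-for-like comparison. At 8 of the 12 the ribosomal protein gene had the nearest 5′ end, and at rps-12, rps-19, rpl-20 and rps-23 the divergent partner did. The other divergent partners were K11H12.8 at rpl-15 and the SET domain gene set-21 at rpl-7A. Which gene of a pair a site serves was not tested. No conservative summit lay inside the body of a member, although 19 snoRNA genes lie within members.

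Chromosome IV held 6 of the 12 sites, a share of its 18 members of 33.3% (Wilson 16.3 to 56.3), against 2.15% of other genes on IV. On chromosome I it was 3 of 25, on III 3 of 18, and on II, V and X 0 of 10, 0 of 8 and 0 of 2. Other genes had shares of 4.03% on I, 3.17% on III, 3.02% on II, 2.11% on V and 3.85% on X. The intervals of these small counts overlap, the one for II reaching up to 27.8% and the one for V up to 32.4%.

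None of the 10 words listed first was shared by most of the sites; CAACGC, picked afterwards, was in 8 of 12. Within 100 bp to each side of the summit TAATTA, the core that many homeodomain proteins bind, was in 0 of 12 member sites and in 3.56% of the 477 other promoter sites. TTTCAG was in 4 of 12, against 14%, GCGCGC in 3, against 17.8%, CCGCCC in 3, against 19.5%, and GAGAGA in 2, against 26.6%. TATTAA was in 1, against 7.34%, the TATA form TATAAA in 1, against 9.43%, and CACGTG in 1, against 4.40%. GATAAG was in 0, against 4.61%, and the tRNA gene word GTTCGA in 0, against 15.7%. In windows of the same length centred 300 bp before the 5′ end of all 81 members, TAATTA was in 6.17%, against 11.5% of other promoters. The same windows held TTTCAG in 37.0% of members, against 33.0% of other promoters, and GAGAGA in 19.8%, against 11.9%. The share of G and C within 100 bp of the summit had a median of 44.5% at the 12 sites and 48.3% at other promoter sites, and within 50 bp it was 53.0% and 52.5%. TTTCAG is a form of TTNCAG, and GCGCGC can overlap itself, as at rpl-7A above.

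Other genes of protein synthesis give a setting for these shares. Of 38 genes of translation initiation and elongation factors, 7 had a conservative site (18.4%, Wilson 9.22 to 33.4), led by the initiation factor subunit genes eif-3.C (signal 177) and eif-3.I (106) and the elongation factor genes eef-1A.2 (144) and eef-1A.1 (103, at a small RNA gene). Of 31 genes of ribosome assembly and RNA polymerase I, 4 had one (12.9%, 5.13 to 28.9): rpac-19 (108), pro-1 (74.6), exos-8 (72.9) and fib-1 (65.1). Mitochondrial ribosomal protein genes, which supply the separate ribosome of that organelle, had 3 of 70 (4.29%, 1.47 to 11.9), at mrpl-23 (219, at a small RNA gene), mrpl-39 (108) and mrps-34 (69.9). The cytosolic ribosomal proteins with other names, ubl-1, ubq-2 and rack-1, had 0 of 3. The interval of the cytosolic members overlaps each of these, and no difference was tested.

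The members stood above all genes further down the ranking as well. Within the 1000 candidates of highest signal 12 members had one (14.8%), among them rps-26 and rps-20 but not rps-23 or rpl-7A, against 18.4% of translation factors and 2.26% of all genes. Within 10000 candidates 40 members had one (49.4%), against 34.2% of translation factors, 18.6% of mitochondrial ribosomal protein genes and 15.3% of all genes.

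**Figure D5:**
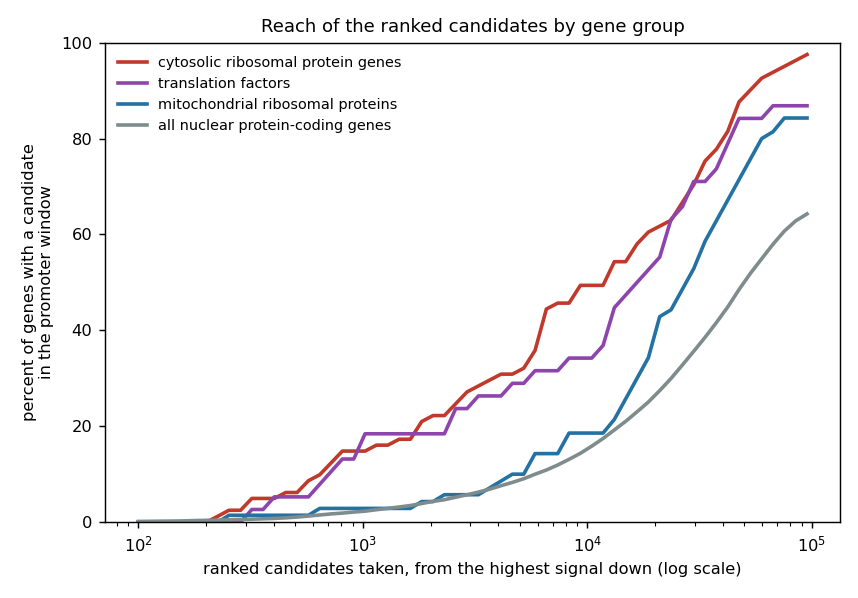
Percent of genes with a candidate in the promoter window (vertical) as candidates of the ranked list are taken from the highest signal down (horizontal, log scale), for cytosolic ribosomal protein genes, translation factors, mitochondrial ribosomal proteins and all nuclear protein-coding genes. The line of the cytosolic ribosomal protein genes reaches 49.4% at 10000 candidates and 97.5% at the end, where that of all genes reaches 64.3%.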

How the data were processed

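Peak lists on the ce11 assembly were deposited for each replicate and for both together, per the labels; the aligner and peak caller were not given in the sources used here, and read depth is unknown. The deposited lists carry a signal per peak, whose scale is not stated, and a score that falls as the IDR rises. The authors' ranked lists also hold the −log10 of the global IDR, a reading of that column taken from its values. The list that the deposited notes call conservative was the main one.

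From these, peaks overlapping by at least 1 bp were merged into sites with the signal and summit of the strongest peak. The 24 mitochondrial peaks of replicate 2's list were left out. Genes were taken from Ensembl release 115 and sequence from RefSeq, both on WBcel235, the assembly of ce11; no peak ran past a chromosome's end. Signals per replicate are those of the strongest overlapping candidate in that replicate's ranked list. Counting was tested on simulated summits. Shares have 95% Wilson intervals (Python 3.11.15, NumPy 2.4.6, SciPy 1.17.1), and no p-value was computed. The alternatives were the other lists, a stricter IDR, other windows and gene assignments, no merging, and leaving out small RNA gene sites. No operon or trans-splicing annotation was used here.

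The members, lists, words and comparisons were chosen with earlier results of these data known. Every member with a conservative site or a site in another thresholded list was named, then the 5 best of the rest by rank and those with no candidate; the distances by nearest gene and the candidates of genes without a site were added after the values were seen, and the weakest candidates, shared candidates and gene copies were chosen after their values were seen. Genes of the comparison lists were named by the 4 highest signals. Of 34 names in the ribosome assembly list, 31 matched the annotation.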

Additional observations from a re-analysis of the deposited data

How the results depend on the processing

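Of 58 values recomputed under another setting, 44 moved by at most 1.5 times (counts), by less than the SD of the single sites or genes (medians, for which this is a wide limit) or within the Wilson interval (a share), and 14 moved further. Within that limit the median distance ran from -389 bp at an IDR of 0.001 to -283 bp by the nearest protein-coding gene. The latter alternative was chosen after seeing the data. The median distance was -382.5 bp without replicate 2 and -327 bp without replicate 1. The median signal percentile of the sites, 65.1, ran from 43.2 at that IDR and 45.6 without replicate 2 to 79.7 without small RNA gene sites, each within a list of its own. Leaving out a replicate, by using the other replicate's own list, gave 2 to 14 members with a site against 12, with 2 to 7 large subunit and 0 to 7 small subunit genes; replicate 1's list, which keeps only rpl-15 and rpl-35, sets the low ends. At an IDR of 0.001 or less 4 members remained (rpl-3, rpl-15, rpl-35 and rps-28), 3 large and 1 small, of 194 genes in all. A window of 200 bp to either side kept only rpl-7A, so 1 member, 1 large and 0 small, with a distance of -80 bp and a signal percentile within the list of 11.1 in place of 65.1. In that window 222 of all genes (1.11%) had a site, so the members' share was near that of all genes. Counting each site for its nearest gene left 8 members, with the small subunit at 2 and the large at 6, while 2.28% of all genes kept a site. Same-strand neighbours within 1000 bp were found at 26 members in place of 9. These include rpl-41.2, which has a conservative site, so the absence of sites holds only for the shorter limit. The G and C share at summits was 53.0% within 50 bp in place of 44.5% within 100 bp. The other list gave 16 members and overlap of the peak interval 13, adding rpl-1. A window from 500 bp upstream, no merging and leaving out small RNA gene sites each gave 12. In the same order, the shares of all genes were 3.47%, 3.33%, 2.16%, 2.97% and 2.52%. No paired analysis was possible because there is 1 group of 2 replicates. Depth is unknown, so absence from a list is not evidence of no binding.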

Other observations

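A scan of all 2080 words of 6 letters within 100 bp to each side of the summits, made after the other values were seen, placed CAACGC first. It was in 8 of the 12 ribosomal protein sites, against 43 of 477 other promoter sites (9.01%) and 7.89% of all 1254 other sites. Within 50 bp to each side it was in 3 of 12, against 5.24% of other promoter sites. In windows of the first length centred 300 bp before the 5′ end it was in 3 of the 69 members without a conservative site (4.35%) and in 3.92% of other promoters. A word picked as the first of 2080 in 12 windows gets no test here, and its match does not show a binding site.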
